A study of Rattus norvegicus with 9 samples.

Results

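The complement genes described here are C1qa, C1qb, C1qc, C1s, C3, C3ar1, C5ar1, Serping1 and Cd59, measured by RNA sequencing of rat hippocampus. They were taken by symbol from the deposited expression table, in which they are 9 of 21138 genes. All 9 passed the filter on low values, which kept 15099 genes. The study compared 3 groups of male Sprague-Dawley rats with 3 libraries each, sampled on Day 56. In the INS + VD group both common carotid arteries had been tied to model vascular dementia, and insulin was given into the nose at 1 U/kg per day. The VD group had the same ligation and received saline at 0.5 mL per day in place of insulin. The CK group had no ligation and is labelled as given normal saline, although the methods also call these rats untreated. All 3 groups carry the wild type label, and the rats were 6 months old when obtained. A sham group that the study also kept was not analysed here. The methods call the libraries biological replicates, but no source says whether each came from 1 rat or from pooled rats, so the p-values below measure the spread between libraries.

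Complement is a cascade of blood and tissue proteins that tags cells, debris and microbes for removal. In its classical pathway C1q binds a surface and activates the proteases C1r and C1s, which leads to cleavage of C3. The fragments of C3 and C5 then attract and activate cells through their receptors, and the pathway can end in a membrane pore. In the brain C1q is made chiefly by microglia, while C3 is also made by reactive astrocytes, and both can mark synapses that microglia then take up. The tissue was sequenced in bulk, so fewer cells of a type and less RNA per cell cannot be told apart in any value below.

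The genes of the A, B and C chains of C1q lie side by side. In the deposited table C1qb, C1qc and C1qa follow each other on the minus strand of chromosome 5, within 17697 bases (155246447 to 155264143), on a rat build that the sources used here do not give. RefSeq promoter sequences of build GRCr8 were available for 4 of the 9 genes, namely C1qa, C1qb, C3 and C3ar1. The 250 bases before the start of C1qa (chr5:154419934-154420183, minus strand), C1qb (chr5:154407828-154408077, minus strand) and C3 (chr9:2201340-2201589, minus strand) are shown because these genes are among those with the clearest differences between the groups. They are written 5′ to 3′ in the direction of the gene, and capitals mark motif matches on either strand.
C1qa: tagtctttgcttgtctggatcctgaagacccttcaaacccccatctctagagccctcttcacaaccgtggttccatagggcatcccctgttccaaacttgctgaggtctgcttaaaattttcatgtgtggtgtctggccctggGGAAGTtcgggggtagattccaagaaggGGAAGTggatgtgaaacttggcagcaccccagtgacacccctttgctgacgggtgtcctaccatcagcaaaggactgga
C1qb: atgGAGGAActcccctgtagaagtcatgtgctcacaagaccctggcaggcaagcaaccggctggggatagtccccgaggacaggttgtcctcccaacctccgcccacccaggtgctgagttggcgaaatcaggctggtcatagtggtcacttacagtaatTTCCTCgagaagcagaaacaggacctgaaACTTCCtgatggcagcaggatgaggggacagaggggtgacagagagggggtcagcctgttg
C3: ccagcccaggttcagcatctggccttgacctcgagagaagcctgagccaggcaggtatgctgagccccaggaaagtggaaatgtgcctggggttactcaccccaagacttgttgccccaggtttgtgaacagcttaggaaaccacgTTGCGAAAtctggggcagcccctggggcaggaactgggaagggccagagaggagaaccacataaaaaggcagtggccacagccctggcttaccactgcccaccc
The motifs searched on both strands were the PU.1 purine box GAGGAA, an interferon response element (GAAA repeated after any 2 bases), a C/EBP motif TTGCNNAA and the ETS core GGAAGT, the last one added after the windows had been read. C1qa held the ETS core at positions −107 to −102 and −79 to −74 from the start. C1qb held the PU.1 box at −247 to −242 and, on the opposite strand, at −90 to −85, and the ETS core on the opposite strand at −61 to −56. C3 held the C/EBP motif at −104 to −97. No 2 of these matches overlapped. The motifs are common: of 33469 rat promoters of the same length, 23.3% held the PU.1 box, 19.2% the ETS core, 9.22% the C/EBP motif and 3.41% the interferon element. C3ar1 held none of the 4 motifs. A match describes the letters only and is neither a binding site nor a cause.

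The libraries held 16500000 to 18300000 mapped fragments, as recovered from the steps of the deposited FPKM values (fragments per kilobase of transcript, scaled to the mapped fragments of the library). Several libraries stood apart in ways the groups do not name. VD replicate 1 was listed at 0 for 568 genes that were above 1 FPKM in every other library, against 12 at most in another library. Olfactory bulb markers summed to 282 and 909 FPKM in VD replicates 1 and 3, and to 33.9 to 192 FPKM elsewhere. Plasma cell markers summed to 572 and 797 FPKM in the same VD libraries, and to 35.6 FPKM at most elsewhere. Brainstem and spinal cord markers were high in VD replicate 2, cerebellar markers in CK replicate 3 and choroid plexus markers in INS + VD replicate 1. Red blood cell markers differed along the groups, summing to 1573 to 4487 FPKM in CK. They summed to 322 to 1627 FPKM in VD, which overlapped CK, and to 255 to 966 FPKM in INS + VD. The part of any of these in the results below was not tested.

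The differences below were tested with limma on log2(FPKM + 1), in a fit of all 9 libraries, and p-values were adjusted over the 15099 genes kept. In VD vs. CK, 0 of the 9 complement genes passed the adjusted threshold of 0.05 with a log2 fold change of at least 1 in size, as did 0% of all genes (0 of 15099). At an unadjusted p of at most 0.05 with the same fold change, 6 of the 9 were higher in VD, where 3.89% of all genes were. The groups did not overlap for the same 6 genes, all higher in VD, where 9.74% of all genes did not overlap in that direction. These were C1qa, C1qb, C1qc, C1s, C3 and Serping1. The median log2 fold change of the 9 genes was 1.55, and that of all genes was −0.02. The members and the lists used below were chosen with earlier results of these data known. These counts and those below are therefore descriptions and not independent support.

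In INS + VD vs. VD, 0 of the 9 genes passed the adjusted threshold, as did 0% of all genes. At the unadjusted p with the fold change, 6 of the 9 were lower in INS + VD, where 2.54% of all genes were. The groups did not overlap for 5 of the 9, all lower in INS + VD, against 7.6% of all genes. The count of 6 was 1 without INS + VD replicate 3, 2 without INS + VD replicate 1, 3 without VD replicate 1 and 2 when every library was scaled to the same FPKM total. In the same order the count over all genes, in either direction, was 391, 598, 440 and 1042, against 932 with all libraries as deposited. The median log2 fold change was −1.10, and that of all genes was 0.04. This comparison uses the same VD libraries as the one before, so a high VD library raises the first difference and lowers the second together. The values of each comparison are given side by side for that reason and not as separate support.

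In INS + VD vs. CK, 0 of the 9 genes passed the adjusted threshold, as did 0% of all genes. C3 was the only one of the 9 at the unadjusted p with the fold change, against 0.636% of all genes that were higher at these limits. C3 and Cd59 did not overlap between the groups, both higher in INS + VD, against 5.85% of all genes. The median log2 fold change was 0.48, and all 9 fold changes were above 0, as were those of 49.7% of all genes. The limma-voom test on recovered whole fragments, added after the values had been seen, also called 0 of the 9 genes in each comparison. At its unadjusted p with the fold change it counted 6 of the 9 genes for VD against CK, 6 for INS + VD against VD and 1 for INS + VD against CK. Over the 15010 genes it tested, these counts were 1464, 967 and 197. With 3 libraries a side, a two-sided exact permutation test has 0.1 as its smallest p, and it gave that value for the 6, 5 and 2 genes whose groups did not overlap.

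**Figure D1:**
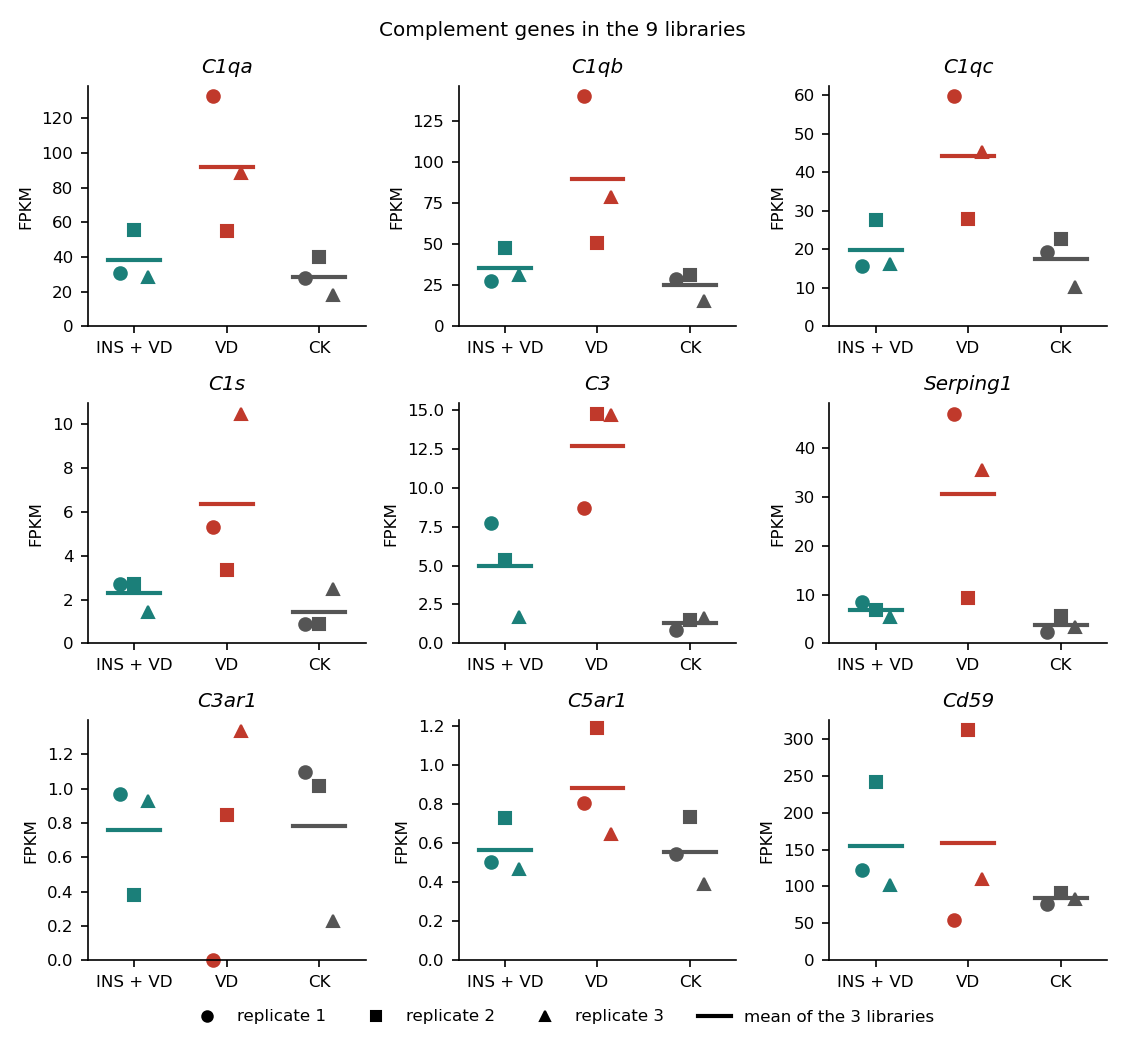
FPKM of each complement gene (y axes, linear, each from 0) in the 9 libraries of the INS + VD, VD and CK groups, with 1 symbol per replicate number and a bar at the mean of 3 libraries. No bar is drawn for C3ar1 in VD, where replicate 1 is listed at 0. For C1qa, C1qb, C1qc, C1s, C3 and Serping1 the 3 VD libraries lie above the 3 CK libraries.

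C1qa encodes the A chain of C1q (ENSRNOG00000012807). It was at 31.0, 55.6 and 28.8 FPKM in INS + VD. The VD libraries held 133, 55.0 and 88.8 FPKM, against 28.1, 39.8 and 18.4 FPKM in CK. VD replicate 1 was the highest of all 9 libraries, and INS + VD replicate 2 lay just above VD replicate 2, so that these groups overlapped. The mean was 92.2 ± 39.1 FPKM in VD and 28.7 ± 10.7 FPKM in CK (SD, n = 3 each), a ratio of 3.21. The log2 fold change in VD vs. CK was 1.62 (SE 0.43, 95% confidence interval 0.66 to 2.59), with a limma unadjusted p of 0.00400 and an adjusted p of 0.223. In INS + VD, at 38.4 ± 14.9 FPKM, the log2 fold change against VD was −1.21 (SE 0.43), with a limma unadjusted p of 0.0187 and an adjusted p of 0.512.

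C1qb encodes the B chain (ENSRNOG00000012749). Its FPKM was 27.9, 47.6 and 31.2 in INS + VD. In VD it was 139.9, 50.6 and 78.7 FPKM, against 28.6, 31.1 and 15.5 FPKM in CK. Every VD library was above every library of the other groups, by a narrow margin in the case of VD replicate 2 and INS + VD replicate 2. C1qb had a log2 fold change of 1.73 in VD vs. CK (SE 0.43, limma adjusted p 0.205) and −1.23 in INS + VD vs. VD (SE 0.43, limma adjusted p 0.512).

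C1qc encodes the C chain (ENSRNOG00000012804), and it was the lowest of these chains in each of the 9 libraries on the FPKM scale. C1qc was at 15.8, 27.7 and 16.3 FPKM in INS + VD and at 59.9, 27.96 and 45.2 FPKM in VD, against 19.4, 22.8 and 10.2 FPKM in CK. All INS + VD libraries were below the VD libraries, with replicate 2 of both groups nearly equal. C1qc had a log2 fold change of 1.30 in VD vs. CK (SE 0.41, limma adjusted p 0.288) and −1.10 in INS + VD vs. VD (SE 0.41, limma adjusted p 0.512). CK replicate 3, the library with the high cerebellar markers, was the lowest of the 9 libraries for each chain. Without it the log2 fold change of C1qc in VD vs. CK was 0.98. Recovered fragments ranged over the 9 libraries between 189 and 1080 for C1qc, between 287 and 2506 for C1qb and between 328 and 2304 for C1qa, so counting noise was small beside the spread between libraries.

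The proportions of the chains were similar, though not constant, over the libraries. C1qa made up 37.0 to 42.5% of the summed FPKM of the chains over all 9 libraries, and C1qb 33.2 to 42.0%. The share of C1qc was 21.1, 21.2 and 21.4% in INS + VD and 18.0, 20.9 and 21.3% in VD, against 25.5, 24.3 and 23.1% in CK. The C1qc share was thus lower in each INS + VD and VD library than in each CK library, a description that was not tested. Over the 9 libraries the log2 levels of the chains had Pearson correlations of 0.98 to 0.99 with each other. Their correlations were 0.81 to 0.86 with the microglia list and 0.81 to 0.82 with the meninges and fibroblast list. They were 0.75 to 0.80 with the reactive astrocyte list, 0.70 to 0.72 with the olfactory bulb list and 0.77 to 0.78 with the plasma cell list. The part of these in the C1q values was not tested. The 9 libraries share the group differences and the library effects named above, so the correlations carry no p.

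C1s encodes the protease of the C1 complex that cleaves C4 and C2 (ENSRNOG00000011971, chromosome 4, 157143592 to 157155609, minus strand). It was at 2.71, 2.70 and 1.45 FPKM in INS + VD and at 5.31, 3.33 and 10.5 FPKM in VD, against 0.902, 0.871 and 2.49 FPKM in CK. VD replicate 3 was the highest library and CK replicate 3 the highest of its group, and VD did not overlap either of the other groups. The mean was 6.37 ± 3.69 FPKM in VD and 1.42 ± 0.924 FPKM in CK (SD, n = 3 each). C1s had a log2 fold change of 1.55 in VD vs. CK (SE 0.43, limma adjusted p 0.240) and −1.07 in INS + VD vs. VD (SE 0.43, limma adjusted p 0.512). C1s rested on fewer fragments than the C1q chains, 46 in CK replicate 2 at the lowest and 551 in VD replicate 3 at the highest. Over the 9 libraries its log2 level had Pearson correlations of 0.90 with the olfactory bulb list, 0.88 with the reactive astrocyte list and 0.84 with the plasma cell list. The part of these in the C1s values was not tested.

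C3 encodes the central component, on which the classical, lectin and alternative pathways converge (ENSRNOG00000046834, chromosome 9, 9721105 to 9747167, plus strand in the deposited table). It was at 7.77, 5.38 and 1.70 FPKM in INS + VD and at 8.72, 14.8 and 14.7 FPKM in VD, against 0.889, 1.49 and 1.64 FPKM in CK. All VD libraries were above all INS + VD libraries, which in turn were above all CK libraries, but INS + VD replicate 3 exceeded CK replicate 3 by only a small margin. Unlike the C1q chains, C3 was lowest in replicate 1 among the VD libraries, the library with the high FPKM sum. The transcript length was 5188 bases for C3 and 1048 to 1090 bases for the chains. The part of length and of this library in the contrast was not tested. The mean was 12.7 ± 3.46 FPKM in VD and 1.34 ± 0.396 FPKM in CK (SD, n = 3 each), a ratio of 9.50, the highest of the 9 genes. The log2 fold change in VD vs. CK was 2.53 (SE 0.45, 95% confidence interval 1.51 to 3.55), with a limma unadjusted p of 3.20e-04 and an adjusted p of 0.196. By this p C3 ranked 15 among the 15099 genes. Set against VD, INS + VD had a log2 fold change of −1.33 (SE 0.45), with a limma unadjusted p of 0.0163 and an adjusted p of 0.512. Set against CK, it had one of 1.20 (SE 0.45, 95% confidence interval 0.18 to 2.22), with a limma unadjusted p of 0.0260 and an adjusted p of 1. That last count of 1 gene became 0 without CK replicate 1, CK replicate 2, INS + VD replicate 1 or INS + VD replicate 2, where the counts over all genes were 221, 173, 246 and 90, against 142.

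C3ar1 encodes the receptor of the C3a fragment (ENSRNOG00000009211). In INS + VD it was at 0.969, 0.378 and 0.926 FPKM. It was listed at 0 in VD replicate 1 and was at 0.846 and 1.33 FPKM in the other VD libraries, against 1.10, 1.02 and 0.232 FPKM in CK. The groups overlapped in every comparison. A count of 0 in VD replicate 1 allows up to 0.0897 FPKM (3 fragments, counting error only), which is below every other library. VD replicate 1 is also the library with the many genes listed at 0, and C3ar1 rested on 47 fragments at the highest. C3ar1 had a log2 fold change of −0.09 in VD vs. CK (SE 0.36, 95% confidence interval −0.91 to 0.73, limma adjusted p 0.913), and 0.26 without VD replicate 1.

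C5ar1 encodes the receptor of the C5a fragment (ENSRNOG00000047800). It was at 0.503, 0.728 and 0.466 FPKM in INS + VD and at 0.806, 1.19 and 0.647 FPKM in VD, against 0.542, 0.733 and 0.391 FPKM in CK. VD replicate 2 was the highest library, and the groups overlapped in every comparison. The gene rested on 13 to 42 fragments per library and C3ar1 on 0 to 47, the thinnest data of the 9 genes. C5ar1 had a log2 fold change of 0.27 in VD vs. CK (SE 0.22, 95% confidence interval −0.22 to 0.76, limma adjusted p 0.559) and −0.26 in INS + VD vs. VD (SE 0.22, limma adjusted p 0.611).

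Serping1 encodes C1 inhibitor, which inactivates C1r and C1s (ENSRNOG00000007457, chromosome 3, 72161189 to 72171078, minus strand). It was at 8.45, 6.85 and 5.50 FPKM in INS + VD and at 47.1, 9.35 and 35.6 FPKM in VD, against 2.44, 5.63 and 3.32 FPKM in CK. The VD libraries lay far apart, with replicates 1 and 3 well above replicate 2, which exceeded the highest INS + VD library only slightly. The mean was 30.7 ± 19.3 FPKM in VD and 3.80 ± 1.65 FPKM in CK (SD, n = 3 each), a ratio of 8.08. The log2 fold change in VD vs. CK was 2.51 (SE 0.55, 95% confidence interval 1.27 to 3.75), with a limma unadjusted p of 0.00133 and an adjusted p of 0.200. Without VD replicate 2 it was 3.18 with a limma adjusted p of 0.0224, the only adjusted p of a complement gene past the threshold under any alternative. Over all genes 28 were called in that setting. The VD libraries it kept, replicates 1 and 3, are those with the high olfactory bulb and plasma cell markers. Over the 9 libraries the log2 level of Serping1 had Pearson correlations of 0.80 and 0.90 with these lists. The correlation was 0.93 with the meninges and fibroblast list and 0.87 with the reactive astrocyte list. The part of any of these in the result was not tested. The log2 fold change of Serping1 for INS + VD against VD was −1.75 (SE 0.55), with a limma unadjusted p of 0.0112 and an adjusted p of 0.512.

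Cd59 encodes a membrane protein that blocks the last step of the membrane pore (ENSRNOG00000042821, chromosome 3, 94010475 to 94028621, plus strand). The INS + VD libraries held 122, 241 and 102 FPKM and the VD libraries 55.2, 312 and 109.8 FPKM, against 76.7, 91.6 and 83.6 FPKM in CK. VD held both the highest and the lowest of the 9 libraries, while the CK libraries lay close together. The log2 fold change was 0.56 in VD vs. CK (SE 0.58, 95% confidence interval −0.75 to 1.87, limma adjusted p 0.641), and −0.10 without VD replicate 2. Over the 9 libraries its log2 level had Pearson correlations of 0.90 with the astrocyte list, 0.76 with the oligodendrocyte list, 0.72 with the endothelial list and 0.68 with the brainstem and spinal cord list, given as descriptions. Oligodendrocyte markers summed to 7535, 8906 and 1525 FPKM in INS + VD and to 1412, 15634 and 2187 FPKM in VD, against 4599, 4929 and 5442 FPKM in CK. VD replicate 2 had the highest oligodendrocyte sum and the highest Cd59 of the 9 libraries, and VD replicate 1 the lowest of both. Replicate 3 of INS + VD and of VD had lower oligodendrocyte sums than every CK library and higher Cd59. Brainstem and spinal cord markers summed to 151 FPKM in VD replicate 2 and to 7.32 FPKM at most elsewhere. The part of any of these in the Cd59 values was not tested.

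**Figure D2:**
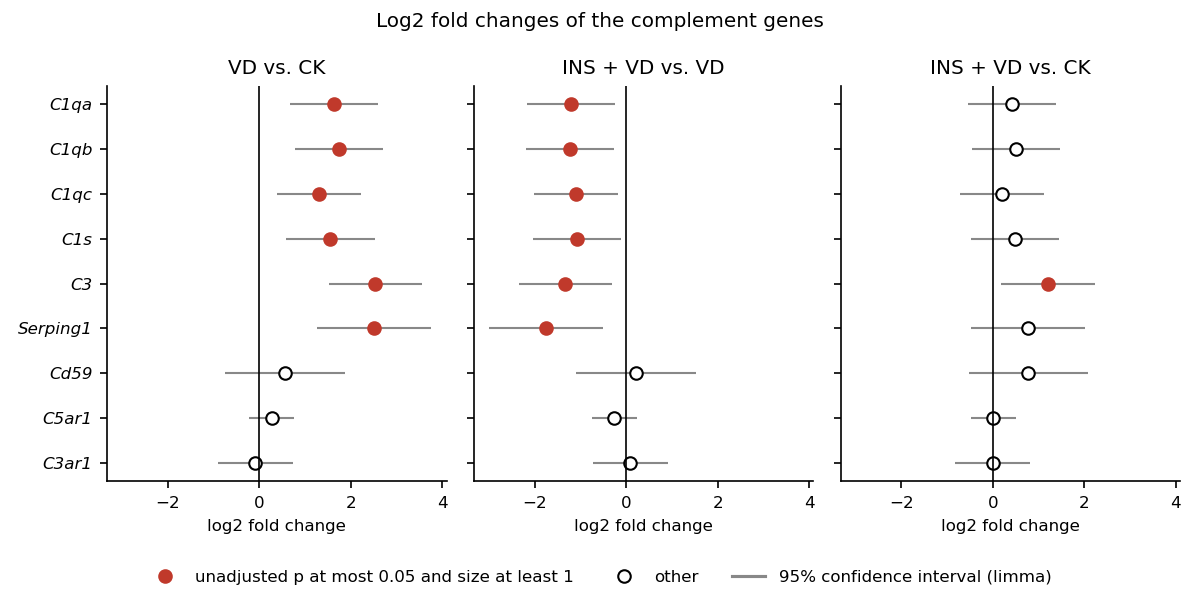
Log2 fold changes of the complement genes on the log2(FPKM + 1) scale (x axes) for VD against CK (left), INS + VD against VD (middle) and INS + VD against CK (right), with 95% confidence intervals from limma as lines. Filled points had an unadjusted p of at most 0.05 and a size of at least 1, which held for 6, 6 and 1 of the 9 genes.

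On the FPKM scale, which is per length, the mean over the 9 libraries was 133 for Cd59, 53.1 for C1qa, 50.1 for C1qb and 27.2 for C1qc. It was 13.8 for Serping1, 6.33 for C3, 3.36 for C1s, 0.756 for C3ar1 and 0.667 for C5ar1. Neighbours in this order that did not keep it in every library were Cd59 and C1qa (8 of 9 libraries), C1qa and C1qb (6 of 9) and Serping1 and C3 (8 of 9). The same was true of C3 and C1s (7 of 9), C1s and C3ar1 (7 of 9) and C3ar1 and C5ar1 (5 of 9). C1qb was above C1qc and C1qc above Serping1 in all 9. The inhibitor Serping1 spanned the widest range, its highest library being 19.3 times its lowest, followed by C3 at 16.6 times and C1s at 12 times. C5ar1 had the narrowest range of the 8 genes without a value of 0, at 3.04 times.

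The level of the C1q chains was also set against microglial marker genes of the same library. The microglia list summed to 323, 418 and 312 FPKM in INS + VD and to 655, 553 and 612 FPKM in VD, against 371, 400 and 172 FPKM in CK. Of the 17 list genes kept, 14 were higher in VD than in CK, as were 7358 of all 15099 genes. At the unadjusted p with the fold change 8 were higher, against 3.89% of all genes, and the median log2 fold change was 0.71. Against VD, 14 were lower in INS + VD, as were 7099 of all genes. At these limits 6 were lower, against 2.54% of all genes, and the median was −0.64. Tyrobp, a signalling adaptor of microglia, was at 55.1, 17.1 and 19.3 FPKM in VD, against 3.96, 5.69 and 4.96 FPKM in CK. Tmem119, a marker that separates microglia from other macrophages, was at 12.5, 8.18 and 9.58 FPKM in VD, against 7.41, 9.60 and 3.003 FPKM in CK, with overlap. The homeostatic receptor P2ry12 was listed at 0 in VD replicate 1 and at 11.4 and 13.04 FPKM in the other VD libraries, against 3.55 to 9.40 FPKM in CK. Blood leukocyte markers summed to 0.419 to 4.835 FPKM in INS + VD and to 3.41 to 10.9 FPKM in VD, against 0.43 to 2.15 FPKM in CK. Of the 9 such genes in the table only S100a9 passed the filter. It was at 9.73 FPKM in VD replicate 2, the library with the sum of 10.9 FPKM.

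The mean log2 level of the chains exceeded that of the microglia list by 1.47, 2.15 and 1.58 in INS + VD and by 3.08, 1.69 and 2.05 in VD, against 1.49, 1.59 and 1.49 in CK. Every VD library was above every CK library, and INS + VD overlapped both. The mean log2 difference was 0.75 larger in VD than in CK, and 0.35 larger without VD replicate 1, in which P2ry12 is listed at 0. These values are descriptions of the libraries and were not tested.

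C3 relative to the microglia list lay, on the log2 scale, at −0.04, −0.60 and −1.66 in INS + VD and at −0.35, 0.22 and −0.09 in VD, against −2.30, −2.07 and −1.05 in CK. Relative to the astrocyte list it lay at −2.84, −3.64 and −2.87 in VD, against −5.25, −5.37 and −5.56 in CK. Every VD library was above every CK library on both scales. Reactive astrocyte markers summed to 157, 130 and 116 FPKM in INS + VD and to 281, 158 and 317 FPKM in VD, against 66.4, 80.9 and 68.5 FPKM in CK. All 12 of these genes kept were higher in VD than in CK, as were 7358 of all 15099 genes. At the unadjusted p with the fold change 6 of them were higher, against 3.89% of all genes. Over the 9 libraries the log2 level of C3 had Pearson correlations of 0.95 with the reactive astrocyte list and 0.72 with the microglia list. It had one of 0.42 with the astrocyte list. The part of either cell type in the C3 values was not tested.

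Serping1 and C1s are also known as products of fibroblast-like cells of the meninges. The meninges and fibroblast markers summed to 88.9, 56.4 and 69.3 FPKM in INS + VD and to 154, 67.7 and 188 FPKM in VD, against 49.4, 68.8 and 36.0 FPKM in CK. All 10 of these genes kept were higher in VD than in CK, as were 7358 of all 15099 genes. At the unadjusted p with the fold change 5 of them were higher, against 3.89% of all genes. All 10 were lower in INS + VD than in VD, as were 7099 of all genes. Serping1 relative to this list was, on the log2 scale, at 2.17, 0.96 and 1.50 in VD, against −0.29, 0.32 and 0.41 in CK. C1s relative to it was at −0.76, −0.30 and −0.18 in VD, against −1.14, −1.50 and 0.10 in CK. Serping1 thus stood above CK in each VD library on this scale, and C1s overlapped.

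**Figure D3:**
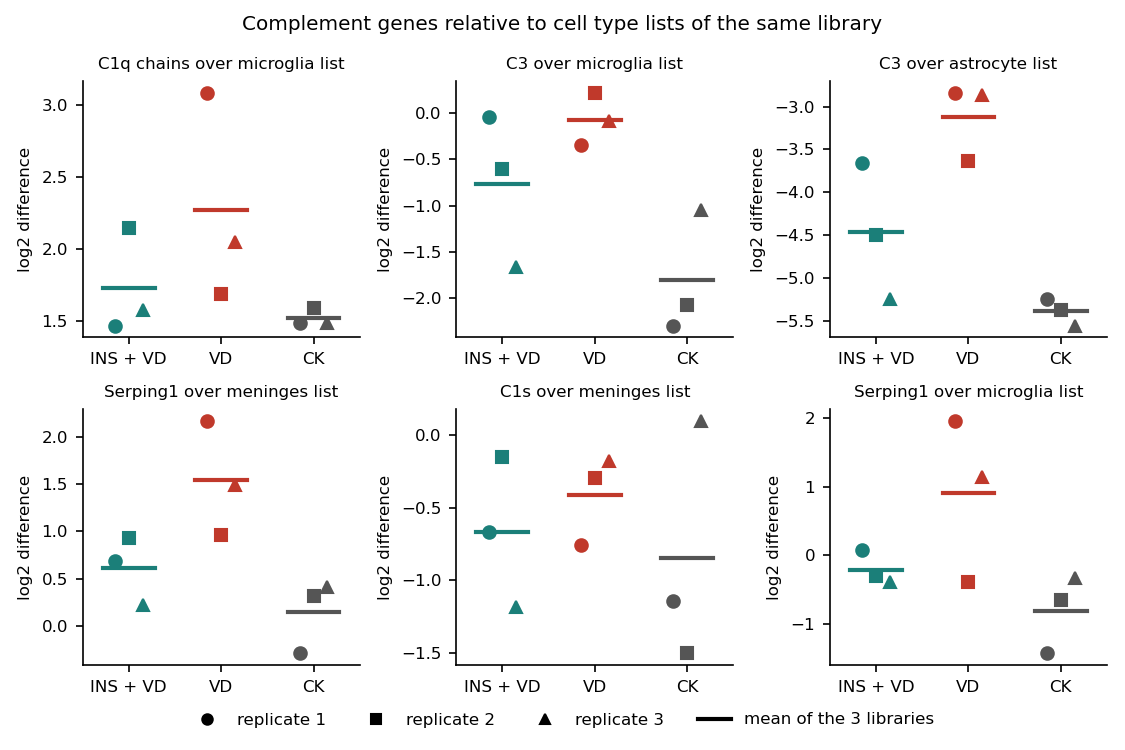
Level of complement genes relative to cell type lists of the same library (y axes, difference of mean log2(FPKM + 1), not starting at 0) in the INS + VD, VD and CK groups, with 1 symbol per replicate number and a bar at the mean. For the C1q chains over the microglia list VD replicate 1 stands at 3.08, and CK libraries lie between 1.49 and 1.59.

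Among the 9 genes, the log2 level of Serping1 over the 9 libraries had a Pearson correlation of 0.91 with C1qa, 0.85 with C1s and 0.77 with C3. C1s and C3 correlated at 0.84. Cd59 and C3ar1 followed none of the others closely, with correlations of −0.13 to 0.55 for Cd59 and −0.25 to 0.22 for C3ar1. The libraries share the group differences and the library effects named above, so these are descriptions without a p.

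**Figure D4:**
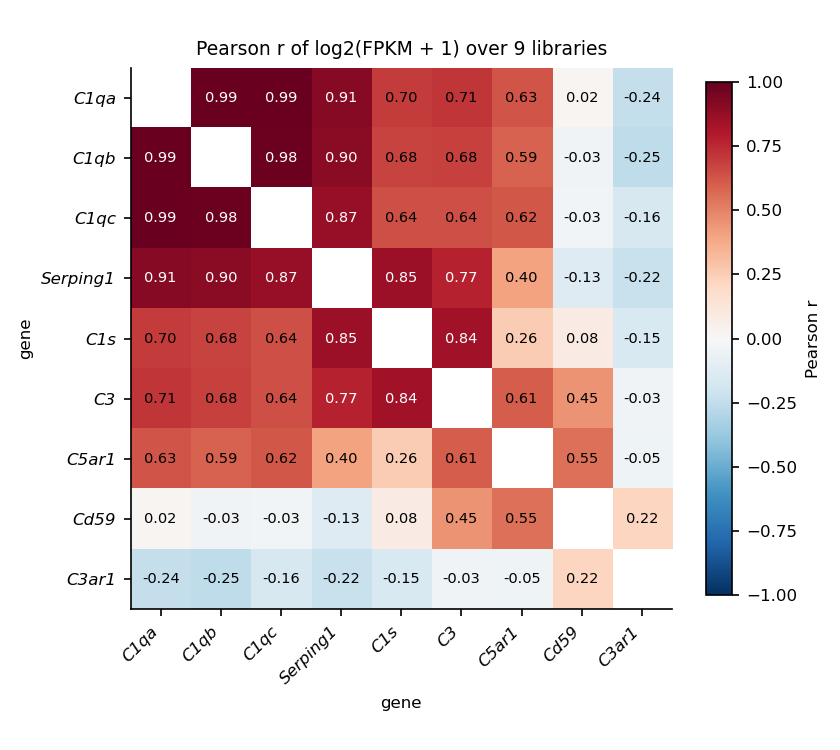
Pearson correlation of log2(FPKM + 1) between the complement genes over the 9 libraries (both axes list the genes, colour from −1 to 1, value printed in each cell). The C1q chains correlate at 0.98 to 0.99, and C3ar1 has no value above 0.22.

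Over all genes kept, the nearest pattern to C1qa was that of C1qc (r = 0.99), followed by Dcn (0.99), a collagen-binding proteoglycan of fibroblasts, and C1qb (0.99). The nearest to C1qb was Tmem176b (0.99). C1s lay nearest to Rac1 (0.97) and Rpl7a (0.96), and C3 to the class I histocompatibility gene RT1-CE7 (0.97) and to Smpdl3a (0.97). Serping1 lay nearest to Fxyd3 (0.98) and to the class II histocompatibility gene RT1-Db1 and its invariant chain gene Cd74 (0.98 each). Cd59 lay nearest to Hsf4 (0.99), C3ar1 to Inhba (0.97) and P2ry13 (0.96), and C5ar1 to Mt-co2 (0.95) and Ccl6 (0.94). These are the highest of 15099 values over 9 libraries and carry no p.

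The remaining complement pathway was described from a list of 55 other genes, of which 47 were in the table and 32 passed the filter. In VD vs. CK, 22 of the 32 were higher and 10 lower, against 7358 and 7741 of all 15099 genes. Of the 32, 0 passed the adjusted threshold. At the unadjusted p with the fold change 4 were higher and 4 lower, against 3.89% and 4.89% of all genes. Without CK replicate 1 that count of 8 was 5, and the count over all genes 961, against 1326. The median log2 fold change was 0.38, below the 1.55 of the 9 genes. For INS + VD against VD, 11 were higher and 21 lower, against 8000 and 7099 of all genes, with a median of −0.11. At the same limits 3 were higher and 4 lower, against 3.64% and 2.54% of all genes. That count of 7 was 3 when INS + VD replicate 3 was left out, and 4 when INS + VD replicate 1 was, where the counts over all genes were the 391 and 598 given above. For INS + VD against CK, 18 were higher and 14 lower, against 7508 and 7590 of all genes. At these limits the count was 0, where 96 of all genes were higher and 46 lower.

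**Figure D5:**
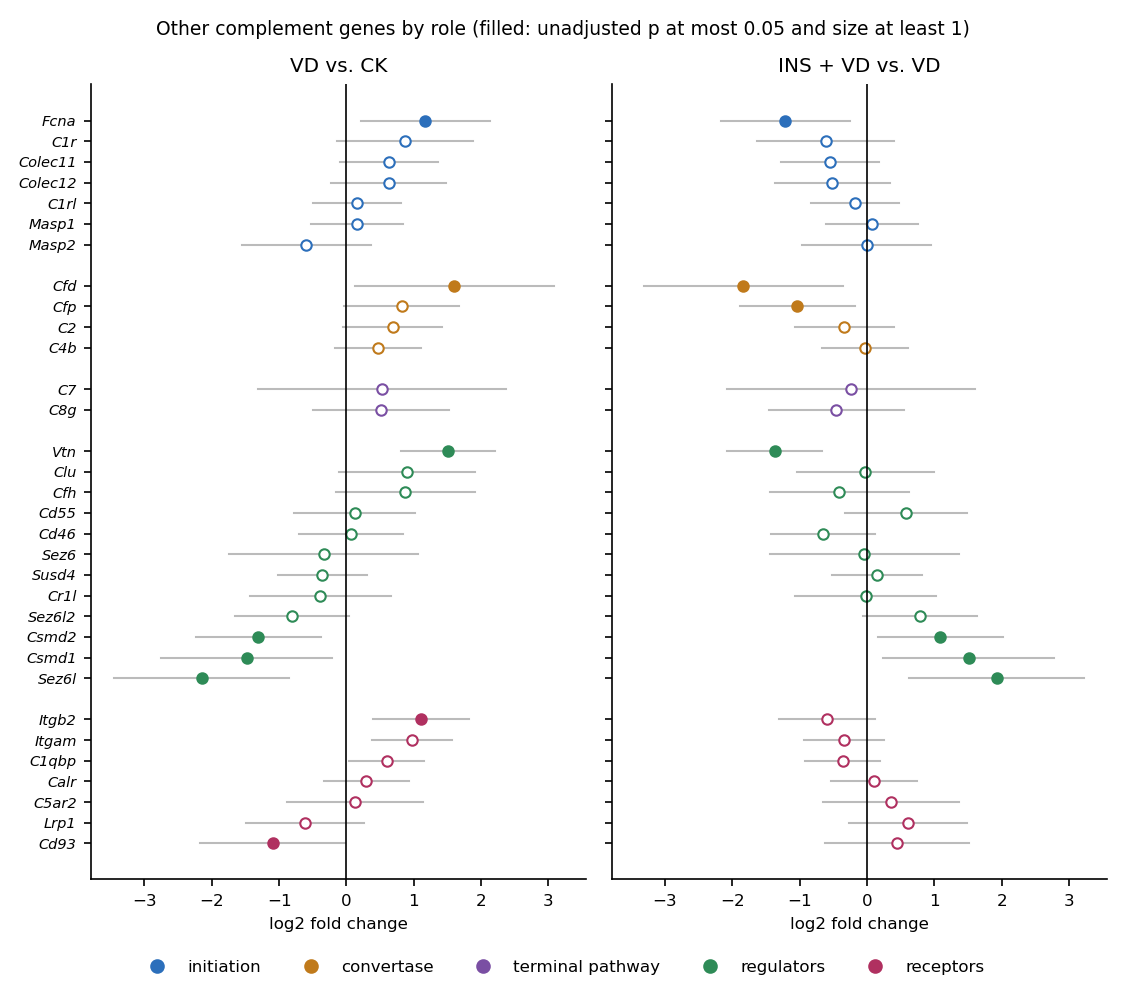
Log2 fold changes of the 32 other complement genes on the log2(FPKM + 1) scale (x axes) with 95% confidence intervals from limma, by role, for VD against CK (left) and INS + VD against VD (right). Filled points had an unadjusted p of at most 0.05 and a size of at least 1, which held for 8 genes on the left and 7 on the right.

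Of the initiating proteins, 6 of 7 genes kept were higher in VD than in CK, as were 7358 of all 15099 genes. C1r, the protease that activates C1s, was at 6.35, 5.50 and 14.3 FPKM in VD, against 2.45, 3.63 and 6.58 FPKM in CK, with overlap (log2 fold change 0.87, SE 0.45, limma adjusted p 0.427). Fcna, the ficolin that starts the lectin pathway, was at 5.88, 0.820 and 1.96 FPKM in VD, against 0.413, 0.509 and 0.522 FPKM in CK, without overlap (log2 fold change 1.17, SE 0.43, limma adjusted p 0.347). The lectin pathway proteases Masp1 and Masp2 had log2 fold changes of 0.16 and −0.60, and the scavenger collectin Colec12 one of 0.63.

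All 4 convertase genes kept had fold changes above 0 in VD vs. CK and below 0 in INS + VD vs. VD. Of all 15099 genes, 7358 were above 0 in the first comparison and 7099 below 0 in the second. Cfd, the protease factor D of the alternative pathway, was at 18.5, 1.16 and 5.10 FPKM in VD, against 1.06, 0.856 and 1.41 FPKM in CK, with overlap (log2 fold change 1.60, SE 0.66, limma adjusted p 0.374). Cfp, properdin, was at 10.1, 3.92 and 4.97 FPKM in VD, against 1.84, 4.10 and 3.09 FPKM in CK, with overlap (log2 fold change 0.82, SE 0.38, limma adjusted p 0.399). Between INS + VD and VD, Cfd had a log2 fold change of −1.84 and Cfp one of −1.03, both without overlap and both with a limma adjusted p of 0.512. VD replicate 1 was the highest library for Fcna, Cfd and Cfp, as it was for the C1q chains.

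C2 and C4b, the parts of the classical C3 convertase, had log2 fold changes of 0.69 and 0.47 in VD vs. CK. C4b shares its place on chromosome 20 with LOC103689965, which the table annotates as a complement C4-like gene, and reads of near-identical copies may be split between them. LOC103689965 (ENSRNOG00000000443), named after its values were seen, was at 1.91, 1.29 and 1.18 FPKM in INS + VD and at 3.24, 2.16 and 4.98 FPKM in VD, against 0.367, 0.660 and 0.645 FPKM in CK. The groups did not overlap in any comparison. C4b was at 0.960 FPKM at the highest, and the values of both are uncertain for this reason.

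Of the terminal pathway, C7 and C8g passed the filter, while C5 and C6 did not, with less than 0.30 FPKM in every library. C7 was listed at 0 in VD replicate 1 and at 7.48 and 8.77 FPKM in the other VD libraries, against 3.09, 1.08 and 2.22 FPKM in CK. C8g was at 8.82, 2.48 and 2.09 FPKM in VD, against 2.23, 2.43 and 2.28 FPKM in CK. Both overlapped between the groups.

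The regulators went both ways, with 5 of 12 above CK in the VD group and 7 below, against 7358 and 7741 of all 15099 genes. Vtn, vitronectin, which keeps the terminal complex in solution and is also a pericyte gene, was at 15.2, 19.0 and 14.4 FPKM in INS + VD and at 58.5, 28.3 and 48.8 FPKM in VD, against 13.05, 14.5 and 16.2 FPKM in CK. VD overlapped neither of the other groups. Its log2 fold change was 1.51 in VD vs. CK (SE 0.31, limma adjusted p 0.196) and −1.37 in INS + VD vs. VD (SE 0.31, limma adjusted p 0.512). Clu, clusterin, an abundant astrocyte product and inhibitor of the terminal complex, was at 860, 414 and 328 FPKM in VD, against 282, 393 and 162 FPKM in CK, with overlap (log2 fold change 0.90, SE 0.45, limma adjusted p 0.416).

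The regulators at the unadjusted p with the fold change in the other direction were neuronal membrane proteins. Sez6l was at 4.12, 10.9 and 28.3 FPKM in VD, against 53.2, 57.1 and 48.6 FPKM in CK, without overlap (log2 fold change −2.15, SE 0.58, limma adjusted p 0.235). Csmd2 was at 0.391, 1.32 and 2.87 FPKM in VD, against 5.84, 4.92 and 3.68 FPKM in CK, without overlap (log2 fold change −1.31, SE 0.41, limma adjusted p 0.295). Csmd1, whose protein limits the classical pathway, was at 0.619, 0.480 and 2.59 FPKM in VD, against 7.15, 6.69 and 1.98 FPKM in CK, with overlap (log2 fold change −1.48, SE 0.56, limma adjusted p 0.356). Between INS + VD and VD their log2 fold changes were 1.93 for Sez6l, 1.09 for Csmd2 and 1.51 for Csmd1, each with overlap and a limma adjusted p of 0.512. Hippocampal neuron markers summed to 269, 195 and 460 FPKM in INS + VD and to 232, 88.2 and 178 FPKM in VD, against 344, 317 and 1027 FPKM in CK. CK replicate 3, with the high cerebellar markers, held Calb1 at 460 FPKM and Neurod1 at 353 FPKM. In the other CK libraries Calb1 was at 57.2 and 41.2 FPKM and Neurod1 at 2.46 and 3.26 FPKM. The related Sez6l2 and Sez6 had log2 fold changes of −0.81 and −0.34 in VD vs. CK, and Susd4 one of −0.36.

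Of the receptors, 5 of 7 were higher in VD than in CK, as were 7358 of all 15099 genes. Itgb2, the beta chain of complement receptors of microglia and leukocytes, was at 2.84, 3.96 and 4.93 FPKM in VD, against 1.64, 1.72 and 0.558 FPKM in CK, without overlap (log2 fold change 1.11, SE 0.32, limma adjusted p 0.252). Cd93, an endothelial protein once taken for a C1q receptor, was listed at 0 in VD replicate 1 and was at 2.43 and 2.58 FPKM in the other VD libraries, against 3.42, 4.54 and 3.89 FPKM in CK (log2 fold change −1.10, SE 0.47, limma adjusted p 0.386). C1qbp, a mitochondrial protein that binds C1q, had a log2 fold change of 0.60, the chaperone Calr one of 0.30 and the scavenger receptor Lrp1 one of −0.61.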

How the data were processed

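RNA of rat hippocampus was sequenced in 9 libraries, and the authors deposited 1 table of FPKM values per gene, made from reads aligned with HISAT2 per the study's methods. The counting program and versions are not given in the sources used here. The processing notes name mouse builds (GRCm38, mm10) although the table holds rat gene IDs, so no build is given here for its coordinates. The deposited FPKM values were tested with limma 3.58.1 in R 4.3.3 on log2(FPKM + 1), which understates changes of low genes, over genes that reached 0.5 FPKM in 3 or more of the 9 libraries. A gene was called at a Benjamini-Hochberg adjusted p of at most 0.05 with a log2 fold change of at least 1 in size, and a second count used the unadjusted p. Whole fragments were recovered for 99.4% of the genes kept (15010 of 15099, tolerance 0.1 fragments). Comparisons share libraries. Of other complement genes the text names the 4 with the highest mean in each role and every gene at the unadjusted p with the fold change in either comparison that involves VD. The members and lists were chosen with earlier results of these data known. Other pseudocounts, filters, scalings, weights, a replicate block, limma-voom (added after seeing the data) and leaving out libraries were tried. Cell type lists were compared by sums and counts only.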

Additional observations from a re-analysis of the deposited data

How the results depend on the processing

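C1qa, C1qb, C1qc, C1s, C3 and Serping1 kept their direction against CK in the VD group, and against VD in the INS + VD group, in all 124 values each under the 21 alternatives, and 7 of 124 turned in INS + VD vs. CK. In VD vs. CK the genes at the unadjusted p with the fold change numbered 4 to 6, the lowest with a filter of at least 1 FPKM in all libraries, which tested 5 of the 9. Genes called ranged between 0 and 1 with 1 library left out, the 1 being Serping1 without VD replicate 2 (3.18, limma adjusted p 0.0224, range over alternatives 0.0224 to 0.557). In INS + VD vs. VD the 6 genes at the unadjusted p became 3 with pseudocount 5, 2 with FPKM rescaled to an equal sum (which moved the median of all genes to 0.22), 2 with array weights, and 1 to 6 with 1 library left out (1 without INS + VD replicate 3, 2 without INS + VD replicate 1, 3 without VD replicate 1). The 1 gene in INS + VD vs. CK became 0 with pseudocount 5, with the 1 FPKM filter and with the replicates 3 of CK, 2 of VD and 2 of INS + VD left out together, and 0 to 1 with 1 library left out.

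The 8 other complement genes in VD vs. CK became 2 with pseudocount 5, 2 with the 1 FPKM filter, and 5 to 9 with 1 library left out (5 without CK replicate 1). The 7 in INS + VD vs. VD became 2 with pseudocount 5, 3 with that filter, and 3 to 8 with 1 library left out (3 without INS + VD replicate 3, 4 without INS + VD replicate 1). The 0 in INS + VD vs. CK became 1 with pseudocount 0.1 and 1 with limma-voom, and 0 to 1 with 1 library left out.

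The log2 fold changes that turned sign are given here, and the causes were not tested. In VD vs. CK, C3ar1 ranged between −0.35 and 0.26 and Cd59 between −0.10 and 1.14 with 1 library left out, and Cd59 was −0.10 with the 3 libraries left out together. For INS + VD against VD, C3ar1 was −0.046 and Cd59 −0.56 with array weights, and with 1 library left out they ranged between −0.26 and 0.35 and between −0.36 and 0.88. For INS + VD against CK, array weights gave −0.042 for C1qa, −0.26 for C1qc, −0.12 for C3ar1 and −0.11 for C5ar1. There the 3 libraries left out together gave −0.16 for C1qa, −0.015 for C1qb, −0.37 for C1qc, −0.080 for C3ar1 and −0.14 for C5ar1, and pseudocount 5 gave −0.0045 for C3ar1. With 1 library left out C1qc ranged between −0.12 and 0.43, C3ar1 between −0.25 and 0.17 and C5ar1 between −0.066 and 0.093.

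With a replicate block 6, 6 and 1 of the 9 genes stood at the unadjusted p when VD was set against CK, INS + VD against VD and INS + VD against CK, and 0 were called. Libraries of the same number did not deviate together throughout (correlations −0.317 to 0.383, against −0.362 to 0.385 for different numbers), so the numbers were not taken to pair the libraries. Between INS + VD and VD the same-number correlations were 0.04, 0.38 and 0.34, higher for replicates 2 and 3 than any different-number pair of these groups (−0.36 to 0.07), and 1 of the 3 was not over 0.1. C3ar1 and C5ar1 rest on 0 to 47 and 13 to 42 fragments per library.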
